A study of Mus musculus with 2 samples.

Results

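Transcript composition within genes was compared between 2 brown adipose tissue libraries, one from high-fat-fed control mice and one from high-fat-fed mice given SML. The genes described were chosen by their deposited counts, which were divided differently among their transcripts in the 2 libraries. A gene was taken when its symbol had 2 or more transcript entries on 1 chromosome, the entries summed to at least 200 counts in each library, and the share of any 1 transcript in that sum differed by at least 25 percentage points. By this rule 145 genes were found among the 1140 that met every condition except the difference in share, which is 12.7% of them, and among 10761 gene symbols in all. The difference in share chose the genes, so it is described here and not tested.

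Both libraries came from male C57BL6/J mice of 8 to 12 weeks kept for 10 days on high-fat feed (60% of energy from fat). The SML group received the agent labelled SML, in a series whose title names sesaminol, at 5 mg/kg body weight by intraperitoneal injection over that period, and the control group was fed the same diet without SML. The labels name no transgene or deletion, and they do not say how many animals or fat depots each library pooled. Each group is 1 library, so no difference has a replicate check, no p-value is given, and every difference is between these 2 libraries and not between the conditions. Intervals are exact 95% intervals on recovered fragments, which cover counting error only and leave out the error of deciding which transcript a fragment came from.

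A transcript isoform is one of the alternative RNAs that a gene makes by choosing among promoters, exons and polyadenylation sites. A cassette exon is one that is spliced into some isoforms and skipped in others, and it can add or remove a short stretch of protein without changing how much RNA the gene makes. Brown adipose tissue burns fat in its mitochondria to make heat. Noradrenaline acts there through cyclic AMP and protein kinase A, and mitochondrial fission and fusion, TOR signalling and autophagy all shape the tissue. Short-read sequencing does not read most transcripts whole, so software divides the fragments of a gene among its isoforms by an estimate, which has least to work with where isoforms are nearly alike.

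The 2 libraries gave 11995913 fragments for the control and 8502352 for SML, recovered from the step size of the deposited counts. Brown adipocyte markers summed to 36167 FPKM (fragments per kilobase of transcript, scaled to library size) in the control library and 28492 in the SML library, and none was at 0. Of 14 such markers kept at a mean of at least 1 FPKM, 3 were at least 1.5-fold higher and 0 lower in SML (median log2 difference 0.16). Prdm16, the marker under that mean, was lower in SML, at 1.42 FPKM in the control library and 0.41 in SML. Cox8b, the largest part of both sums, was at 22044 and 14824 FPKM. Skeletal muscle markers set the libraries apart: 21 of 21 were lower in SML (median log2 difference -3.64), summing to 4427 FPKM in the control library and 294 in the SML library, with none at 0. Lower in SML by that fold were also 6 of 10 macrophage markers (median -0.63), 2 of 10 endothelial markers (median -0.48), 4 of 6 erythroid markers (median -0.72), 6 of 6 hepatocyte markers (median -1.80) and 1 of 7 smooth muscle markers (median 0.01), and no marker on these lists was higher by it. Over all 9870 genes kept, 5.45% were higher and 5.74% lower by that fold, with a median log2 difference of 0.00.

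**Figure D1:**
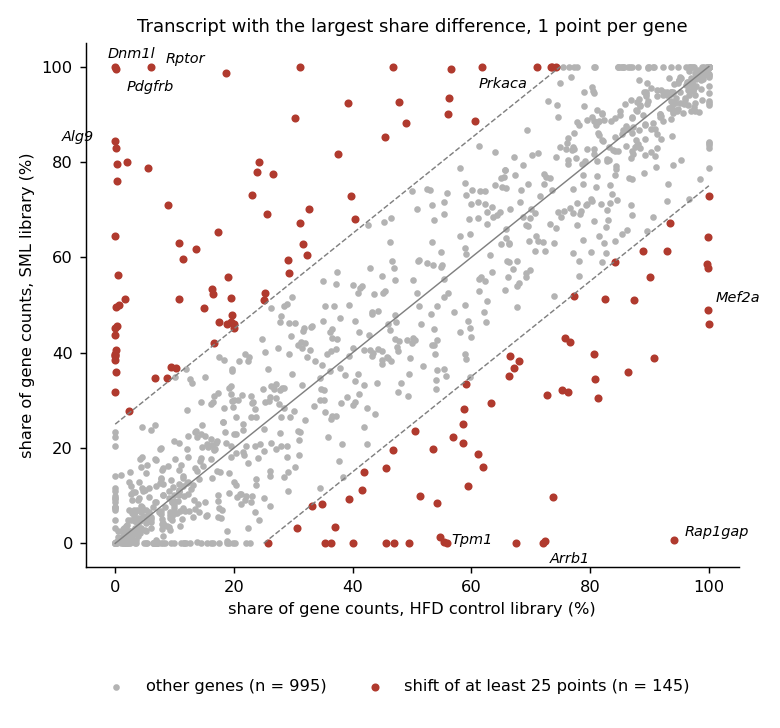
Share of the gene's counts held by the transcript that differed most, in the control library (x axis, %) and in the SML library (y axis, %), 1 point per gene. The 145 red points lie outside the dashed lines at 25 percentage points, and the 995 grey points lie inside them.

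Among the 145 genes, 62 had 2 transcripts in the table, 41 had 3 and 42 had 4 or more, up to 8, which made 452 transcripts. The largest difference in share had a median of 38.2 percentage points. It reached 50 points in 35 genes, lay between 35 and 50 in 50 genes and between 25 and 35 in 60 genes. Just inside the threshold were Mib2 at 25.3, Tor2a at 25.2 and Midn at 25.2 points, and just outside it Rxrb at 24.9, Lmna at 24.8 and Mtg2 at 24.7 points. The transcript with the most counts was a different one in the 2 libraries in 84 genes (57.9%), against 12.8% of all 1140 genes. The rule chose the genes on the same shares, so this contrast follows in large part from the choice. In 4 genes, Dnm1l, Pdgfrb, Rptor and Rap1gap, 1 transcript held over 90% of the counts in one library and under 10% in the other.

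Arranged by textbook role after they were known, they held 23 transcription and chromatin factors, 16 ubiquitin and protein quality genes, 14 vesicle coat and trafficking genes, 13 metabolic enzymes and carriers, and 11 genes each for RNA processing and for the actin and tropomyosin cytoskeleton. Another 10 belonged to cyclic AMP, receptor and growth factor signalling, and 10 were kinases and phosphatases or their partners. Mitochondrial dynamics and scaffolds held 7, TOR signalling and autophagy 6, and 24 belonged to none of these. Enzymes of mitochondria such as Bcat2 and Nadk2 were placed with the metabolic enzymes. The roles are loose. Mtif2, a mitochondrial translation factor, was counted under mitochondrial dynamics and scaffolds, and Farsb, a tRNA synthetase subunit, under RNA processing. No test of enrichment was made. The leading transcript, the one with the most counts, differed between libraries in 57.9% of all members, the share to set beside the counts by role below. By role it ran from 3 of 11 RNA processing genes to 5 of 6 TOR and autophagy genes, with 8 of 16 ubiquitin and protein quality genes. Genes named below that are neither among the 15 largest differences, the 10 with most counts, the extremes of overall level nor a list were picked after their values were seen, to show each role.

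Short exons give a concrete view of how small many of these differences between isoforms are. The table gives no exon structure, but the deposited count divided by the FPKM of a transcript is proportional to its effective length. For each gene, the transcript that had the largest gain in share and the one that had the largest loss from control to SML were compared in this implied length. In 35 of the 143 genes where both lengths could be had (24.5%), the difference matched exactly 1 annotated coding cassette exon of that gene in GENCODE M21, against 12.4% of 887 other genes. The matching exons ran from 9 to 536 bases, 31 of 35 had a length that is a multiple of 3, and 16 were the only cassette exon annotated for the gene. The longer transcript had the higher share in SML in 17 genes, counting Ap1g1 where the order is within rounding, and the lower share in 18. A match in length does not identify the transcript, since other differences can have the same length. The percentages of members and other genes are not a like comparison. The window of lengths allowed depends on the FPKM, and members had smaller length differences (median 53.1 bases against 99.4). The share of multiples of 3 over all annotated cassette exons was not taken.

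The exons below are printed for members whose share difference carries the account that follows, chosen after their values were seen. Each is written 5′ to 3′ on the strand of the gene, from the GENCODE M21 transcript that includes it, on genome build GRCm38. Capitals mark the cassette exon and lower case the 12 bases of the transcript on either side.
Dnm1l: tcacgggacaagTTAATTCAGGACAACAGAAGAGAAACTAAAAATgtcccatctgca
Rhot1: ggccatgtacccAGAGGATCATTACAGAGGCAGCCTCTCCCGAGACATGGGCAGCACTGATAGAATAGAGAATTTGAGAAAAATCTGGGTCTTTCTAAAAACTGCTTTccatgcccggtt
Arrb1: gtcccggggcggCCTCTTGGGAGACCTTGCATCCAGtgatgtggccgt
Tsc2: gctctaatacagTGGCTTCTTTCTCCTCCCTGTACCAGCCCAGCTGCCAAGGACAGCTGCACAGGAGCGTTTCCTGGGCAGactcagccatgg
Atg16l1: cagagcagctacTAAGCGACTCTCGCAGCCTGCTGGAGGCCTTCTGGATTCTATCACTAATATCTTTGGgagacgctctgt
Ap1g1: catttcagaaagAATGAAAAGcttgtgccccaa
Ap2b1: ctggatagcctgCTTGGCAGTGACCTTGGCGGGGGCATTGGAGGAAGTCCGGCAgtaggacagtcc
Mef2a: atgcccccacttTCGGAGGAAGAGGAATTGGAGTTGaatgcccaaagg
Yap1: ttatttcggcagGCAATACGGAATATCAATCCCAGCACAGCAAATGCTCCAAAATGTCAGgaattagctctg
Mbnl1: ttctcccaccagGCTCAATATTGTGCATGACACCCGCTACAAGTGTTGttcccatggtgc
Nadk2: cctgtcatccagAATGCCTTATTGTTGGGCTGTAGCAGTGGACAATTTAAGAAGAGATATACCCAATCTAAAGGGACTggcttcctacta
Bag6: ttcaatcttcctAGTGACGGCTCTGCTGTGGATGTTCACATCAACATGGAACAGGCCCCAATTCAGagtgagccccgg

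The 33-base exon of Dnm1l lies at chr16:16318445-16318477 on the minus strand and the 96-base exon of Rhot1 at chr11:80255862-80255957 on the plus strand. On chromosome 7, the 24-base exon of Arrb1 lies at chr7:99597036-99597059 on the plus strand and the 24-base exon of Mef2a at chr7:67244521-67244544 on the minus strand. The 69-base exon of Tsc2 lies at chr17:24601389-24601457 on the minus strand and the 57-base exon of Atg16l1 at chr1:87774813-87774869 on the plus strand. Among the coat adaptors, the 9-base exon of Ap1g1 lies at chr8:109830613-109830621 and the 42-base exon of Ap2b1 at chr11:83364795-83364836, both on the plus strand. The 48-base exon of Yap1 lies at chr9:7950492-7950539 on the minus strand. On the plus strand, the 36-base exon of Mbnl1 lies at chr3:60621423-60621458, the 66-base exon of Nadk2 at chr15:9098809-9098874 and the 54-base exon of Bag6 at chr17:35139023-35139076. All 12 have a length that is a multiple of 3, so including or skipping one leaves the reading frame as it was. The printed exon is 1 of 4 annotated cassette exons in Dnm1l and Mbnl1 and 1 of 3 in Bag6. In Rhot1, Tsc2, Atg16l1 and Nadk2 it is 1 of 2.

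Among the 7 genes grouped under mitochondrial dynamics and scaffolds, 5 had a different leading transcript in the 2 libraries. Dnm1l encodes the dynamin-related GTPase that divides mitochondria, and it had the largest difference of all. Its transcript TCONS_00012279 had 0 counts in the control library and 319.04 in the SML library, a share of 0% against 99.8%. In place of it the control library had TCONS_00012278 with 172.52 counts (71.2%) and TCONS_00012282 with 56.71 counts (23.4%), which had 0.48 and 0 counts in SML. The summed level of Dnm1l was 242.17 and 319.52 counts, a ratio of 1.32 (interval 1.14 to 1.53), so the exchange was far larger than the difference in level. The transcript with the higher share in SML was the longer by 29.4 bases. Rounding of the FPKM allows 24.3 to 34.5 bases, a range that holds the 33 bases of the exon printed above. That exon is 1 of 4 cassette exons annotated for the gene, so the match does not identify the transcripts.

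Mfn2, the outer membrane GTPase that fuses mitochondria, had 3675.27 counts in the control library and 2531.9 in SML, a ratio of 0.689 (interval 0.659 to 0.72). Its transcript TCONS_00023873 held 53.5% in the control library and 19.8% in SML. The largest gain was in TCONS_00023868, at 16.9% and 38.0%. These transcripts have implied lengths of 4479 and 4475 bases, so they are alike in length while their shares crossed over. Akap1, which anchors protein kinase A at the mitochondrial surface, had TCONS_00005882 at 1349.72 and 555.73 counts (68.8% and 32.8%) and TCONS_00005885 at 609.18 and 1136.03 counts (31.1% and 67.1%). Rhot1 encodes a GTPase that links mitochondria to motor proteins for transport. Its transcript TCONS_00004444 held 10.2% in the control library and 36.7% in SML. That transcript is longer than the one that lost most share by 93.0 bases (rounding allows 85.1 to 101), near the 96-base exon.

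**Figure D2:**
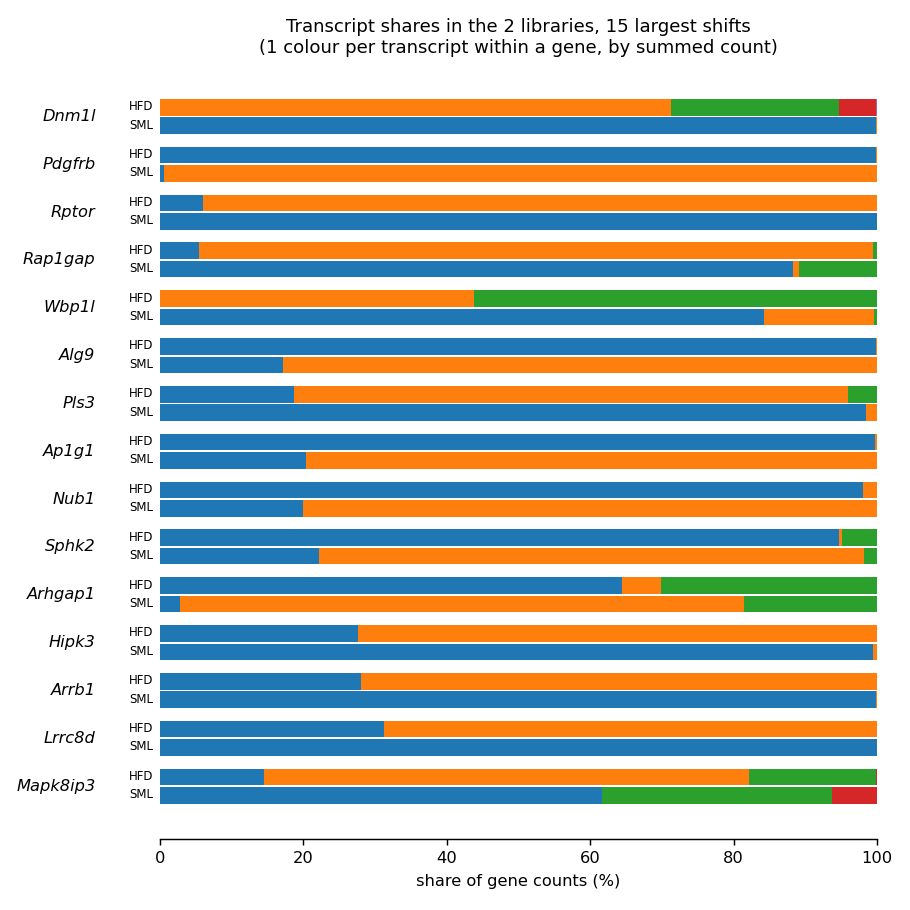
Shares of gene counts (x axis, %) of each transcript in the control (HFD) and SML libraries for the 15 genes with the largest difference, ordered by it, with 1 colour per transcript within a gene. In Dnm1l, Pdgfrb, Rptor and Rap1gap 1 colour fills over 90% of one bar and under 10% of the other.

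Of 10 genes in cyclic AMP, receptor and growth factor signalling, 7 had a different leading transcript. Prkaca, the catalytic subunit of protein kinase A that acts downstream of noradrenaline, had the most counts of any member. Its sum was 3562.48 counts in the control library and 3600.43 in SML, a ratio of 1.01 (interval 0.971 to 1.05). Within that level, TCONS_00031846 had 947.91 counts in the control library, a share of 26.6% (interval 25.5% to 27.8%), and 0.04 counts in SML, a share of 0.0011% (interval 0% to 0.0887%). The gene's level was thus the same within counting error while 26.6% of the control library's counts sat on a transcript with almost none in SML.

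The second catalytic subunit gene, Prkacb, had TCONS_00021753 at 141.41 and 27.42 counts, 54.1% of the gene in the control library and 8.56% in SML. Arrb1, an arrestin that binds activated receptors, had its longer transcript TCONS_00029093 at 92.81 and 307.86 counts, 28% and 99.9%. The shorter one, TCONS_00029094, had 238.58 and 0.40 counts. The 2 differ by 23.8 bases (rounding allows 8.46 to 39.1), a range that holds the 24-base exon printed above. Arrb1 as a whole had 331.39 and 308.26 counts, with an interval of the ratio that holds 1 (0.810 to 1.07). Rap1gap, which switches off the small GTPase Rap1, had TCONS_00022649 at 200.93 and 2.33 counts (94.1% and 0.799%) and TCONS_00022648 at 11.45 and 257.46 counts (5.36% and 88.3%).

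Among the receptors, Pdgfrb, the platelet-derived growth factor receptor of pericytes and fibroblasts, showed the nearest to a full exchange after Dnm1l. TCONS_00014915 had 336.6 counts in the control library and 1.27 in SML, and TCONS_00014914 had 0.52 and 255.91, which took its share from 0.154% to 99.5%. Implied lengths of 5414 and 5419 bases do not tell the 2 apart, since rounding allows a difference of -3.50 to 12.8 bases. Ntrk2, a neurotrophin receptor, had TCONS_00008002 at 17.5% in the control library and 46.4% in SML, with sums of 1787.13 and 2087.24 counts. Eng, a TGF-beta co-receptor of endothelial cells and 1 of the endothelial markers, had TCONS_00017057 at 16.5% and 52.3%, and its 2 transcripts differ by 3.65 bases.

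TOR signalling and autophagy contributed 6 genes. Of these, 5 had a different leading transcript (57.9% of all members did), and 0 had a 1.5-fold difference in level (91.0% of all members had none). Rptor encodes Raptor, the subunit that brings substrates to TOR complex 1. TCONS_00004973 had 323.49 counts in the control library and 0.08 in SML, and TCONS_00004972 had 20.65 and 413.82, so that its share was 6.0% (interval 4.09% to 8.26%) and 99.98% (interval 99.2% to 100%). Tsc2, which holds TOR complex 1 in check, had TCONS_00013828 at 658.98 and 359.62 counts (76.6% and 42.1%) and TCONS_00013834 at 151.79 and 423.25 (17.7% and 49.6%). The longer of these had the higher share in the control library. It differs from the other by 67.6 bases (rounding allows 61.6 to 73.6), near the 69-base exon printed above. Sums for Tsc2 were 859.85 and 853.6 counts.

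Atg16l1, part of the complex that attaches LC3 to autophagosome membranes, had TCONS_00000440 at 143.28 and 0.03 counts (47.3% and 0.0125%). Its TCONS_00000441, longer by 56.2 bases (rounding allows 51.9 to 60.5, which holds the 57-base exon), held 39.1% and 92.3%. Atg9a, a membrane protein of autophagosome formation, had TCONS_00001329 at 80.7% and 34.4%, and its 2 expressed transcripts differ in implied length by less than rounding (-6.43 to 3.59 bases). Tfe3, a transcription factor of lysosome genes, had TCONS_00034955 at 58.5% and 25%.

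Vesicle coat and trafficking genes numbered 14, and in 7 the leading transcript differed. Ap1g1, a subunit of the clathrin adaptor at the Golgi, had TCONS_00032107 at 381.91 and 83.82 counts and TCONS_00032108 at 1.1 and 327.48, shares of 0.287% and 79.6% for the latter. The implied length of the latter is greater by 8.27 bases, but rounding of the FPKM allows -2.66 to 19.2 bases, so which of them is longer is not settled. The 9-base exon is the only cassette exon annotated for the gene. Because the range holds 0, any cassette exon of up to 19 bases would have matched, so this match says little. Ap2b1, a subunit of the plasma membrane adaptor, had its longer transcript TCONS_00004482 at 582.94 and 240.45 counts (99.97% and 46.1%), and TCONS_00004483, shorter by 40.2 bases, at 0.18 and 281.69. The summed level of Ap1g1 was near equal, with a ratio of 1.07 (interval 0.95 to 1.21). That of Ap2b1 was somewhat lower in SML, at 0.895 (interval 0.806 to 0.993, below 1). Vps13d, a lipid transfer protein, had the third lowest ratio of summed FPKM, but this rests on a listed value: TCONS_00023857 had 89.83 counts in SML and an FPKM listed at 0. By counts its ratio was 0.776 (interval 0.662 to 0.905), and its largest share difference was 40.4 points by counts and 0 by FPKM.

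The 23 transcription and chromatin factors included 15 whose leading transcript differed. Stat5a, which acts below growth hormone and prolactin receptors, had TCONS_00004709 at 0.32 and 153.83 counts (0.0720% and 35.7%) at sums of 444.19 and 431.22. Its 2 transcripts differ by 283 bases.

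Mef2a, a factor of muscle and neuron genes, had TCONS_00030462 at 0.17 and 172.37 counts (0.0725% and 50.9%). That transcript is longer than TCONS_00030463 by 22.2 bases (rounding allows 9.75 to 34.6), a range that holds the 24-base exon. Yap1, the coactivator at the end of the Hippo pathway, had its longer transcript TCONS_00034001 at 133.13 and 34.39 counts (59.3% and 12.1%). The difference in length is 52.7 bases (rounding allows 44.8 to 60.6), a range that holds the 48-base exon. Ebf2, which specifies brown adipocytes, had TCONS_00009410 at 31.6% and 62.9%, and its transcripts differ in implied length by less than rounding (-15.4 to 9.27 bases). Nfia, a nuclear factor I family member active in brown fat, had both a difference in share and in level. TCONS_00022187 had 84.91 and 492.92 counts (24.0% and 78.0%), and the gene's ratio of summed counts was 1.78 (interval 1.60 to 2.0). Its ratio of summed FPKM, 1.71, was the third highest among members.

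Among the 11 RNA processing genes were 3 splicing regulators, Mbnl1, Celf2 and Hnrnpk. Mbnl1 and Celf2 encode proteins known for opposing each other on many developmental exons. Mbnl1 had the highest ratio of all members: 441.91 and 840.52 counts, or 1.90 (interval 1.72 to 2.10), and Celf2 followed with 357.98 and 661.43 counts, or 1.85 (interval 1.65 to 2.06). In Mbnl1, TCONS_00020207 had 165.61 and 686.98 counts (37.5% and 81.7%), while TCONS_00020209 had 101.97 and 0 and TCONS_00020205 had 57.4 and 0. The absent TCONS_00020209 is longer than TCONS_00020207 by 36.1 bases (rounding allows 27.1 to 45.0). The 36-base exon of Mbnl1 printed above lies in that range and is 1 of 4 cassette exons annotated for the gene. In Celf2, TCONS_00018404 held 27.0% and 49.5%. Hnrnpk, an abundant RNA-binding protein, had equal sums (1432.64 and 1475.5 counts, ratio interval 0.967 to 1.10), with TCONS_00008641 at 39.4% and 9.32%.

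Of the wider list of splicing regulators, 54 were kept and 5 were at least 1.5-fold higher and 0 lower in SML. Their median log2 difference was 0.16 against 0.00 over all genes. For this list and the next 2, the shares over all genes kept were 5.45% higher and 5.74% lower. The 5 were Mbnl2 (1.09), Mbnl1 (0.90), Celf2 (0.76), Srsf10 (0.72) and Qk (0.71), as log2 differences of FPKM plus 1. Of the list's 22 genes that could have been taken, 3 were, near the 12.7% of all such genes. Among 22 cleavage and polyadenylation factors, 2 were higher and 0 lower (median 0.04), and 0 of the 1 that could have been taken was. Of 46 genes known for isoforms that depend on tissue or hormones, 3 were higher and 8 lower (median 0.01). The 8 included Tpm1, Tpm2 and Tpm3. The skeletal muscle markers were lower in the same library, and their part in these values was not tested. Of 22 on this list that could have been taken, 5 were, where 12.7% of all such genes were. They were Tpm1, Tpm2, Tpm3, Mef2a and Mbnl1, and Mbnl1 was also on the splicing list. Whether the list held more members than other genes was not tested.

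Of the 11 actin and tropomyosin cytoskeleton genes, grouped after they were known, 5 were at least 1.5-fold lower in SML and 0 higher, where 3.77% of all 1140 genes were lower. The 5 include the 3 tropomyosins, and all 11 ratios of summed counts lay between 0.153 and 0.901. Over all members the median log2 difference of summed FPKM plus 1 was 0.00. The share of all genes with a ratio under 1 was not taken. Tropomyosins wrap around actin filaments, and their muscle and non-muscle isoforms come from the same genes. Tpm1 had summed FPKM of 246.21 in the control library and 71.71 in SML, with TCONS_00034489 at 149.38 and 1.38 FPKM. That transcript held 54.8% of the counts in the control library (1299.68) and 1.43% in SML (11.96). TCONS_00034478 of the same gene was higher in SML, at 4.58 and 29.88 FPKM, or 2.44% and 45.0% of the counts. Both the level and the ordering of the isoforms thus differed.

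Tpm2 had TCONS_00023103 at 97.57 and 6.41 FPKM (90.7% and 38.9% of counts), while TCONS_00023102 was at 15.92 and 14.58 FPKM. The share of TCONS_00023102, 9.30% and 55.5%, therefore came with almost no difference in its own level. Tpm3 had TCONS_00020382 at 22.13 and 0 FPKM and TCONS_00020386 at 19.7 and 1.52, against TCONS_00020390 at 9.04 and 17.71 and TCONS_00020391 at 5.25 and 12.38. By counts the ratio of SML to control was 0.352 for Tpm1 (interval 0.328 to 0.378), 0.153 for Tpm2 (0.139 to 0.168) and 0.591 for Tpm3 (0.541 to 0.646). The skeletal muscle markers were lower in the same library, in 21 of 21 cases. Their part in the tropomyosin values was not tested, and in whole tissue fewer cells of a type and less RNA per cell cannot be told apart.

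**Figure D3:**
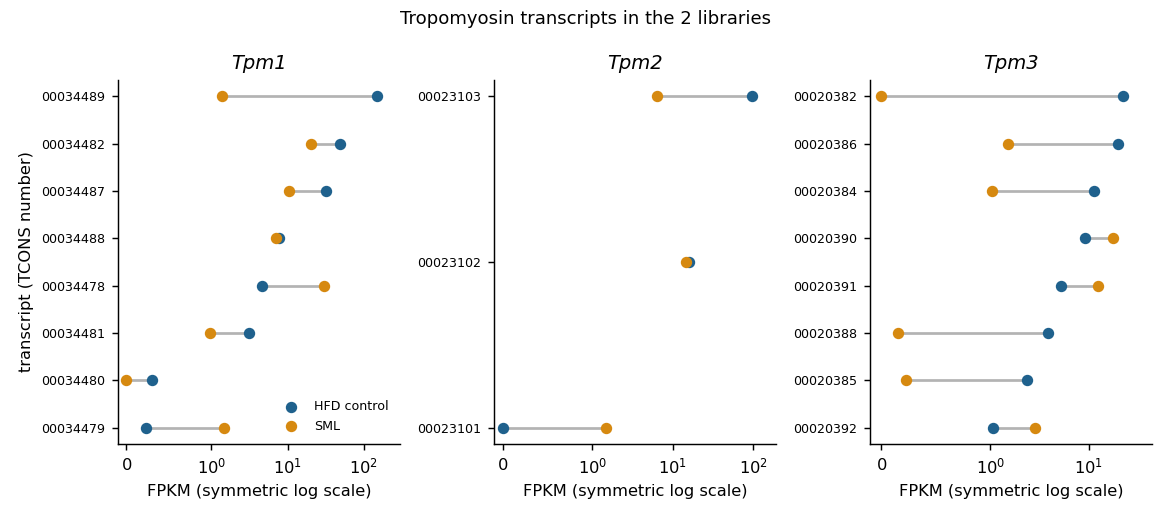
Level of each transcript of Tpm1, Tpm2 and Tpm3 in FPKM (x axis, symmetric log scale) in the control (blue) and SML (orange) libraries, with the pair joined by a line. The leading control transcripts of Tpm1 and Tpm2 are at 149.38 and 97.57 FPKM, with their SML points far to the left, while both points of TCONS_00023102 of Tpm2 nearly coincide.

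Other cytoskeletal members followed with smaller differences in level. Pls3, an actin bundler, had TCONS_00036269 at 252.13 and 3.53 counts and TCONS_00036267 at 60.59 and 240.65, shares of 18.6% and 98.6% for the latter, between transcripts 5.92 bases apart. Arhgap1, a GTPase-activating protein, had TCONS_00017455 at 18.76 and 204 counts (5.50% and 78.8%). Zyx, a protein of focal adhesions, had 343.46 and 206.18 counts and its TCONS_00026384 at 25.5% and 69.1%. Sptan1, the alpha spectrin of the membrane skeleton, had TCONS_00016973 at 0.17 and 541.36 counts, 0.0112% and 39.6% of the gene.

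Metabolic enzymes and carriers numbered 13, and in 9 the leading transcript differed. Bcat2, the mitochondrial enzyme that starts branched-chain amino acid breakdown, had TCONS_00028804 at 635.92 and 54.47 counts (37.0% and 3.40%), at sums of 1717.51 and 1600.19. Nadk2, the mitochondrial NAD kinase, had TCONS_00010305 at 62.38 and 294.06 counts (30.4% and 89.2%). That transcript is shorter than TCONS_00010306 by 63.4 bases (rounding allows 57.7 to 69.1), near the 66-base exon. Sphk2, a sphingosine kinase, had TCONS_00030331 at 1.45 and 400.43 counts (0.339% and 75.9%). Alg9, a mannosyltransferase of protein glycosylation, had TCONS_00033396 at 0.62 and 312.32 counts (0.160% and 82.9%), at nearly equal sums of 388.11 and 376.67. Tcn2, the carrier of vitamin B12 in blood, had TCONS_00005049 at 19.0% and 56.0%. Lrrc8d, a subunit of volume-regulated anion channels, had TCONS_00024614 at 199.14 and 0.11 counts (68.8% and 0.0354%).

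Among 10 kinases, phosphatases and partners, Hipk3, a nuclear kinase, had TCONS_00019216 at 324.38 and 2.86 counts (72.4% and 0.481%) against a transcript whose implied length differs by less than rounding (-17.0 to 4.89 bases). Mapk8ip3, a scaffold for JNK signalling and axonal transport, had TCONS_00013852 at 154.18 and 0 counts (67.6% and 0%). Its TCONS_00013859, which had 33.12 and 166.67 counts, differs from that one in implied length by less than rounding (-14.3 to 16.0 bases). The 16 ubiquitin and protein quality genes included Nub1, which feeds NEDD8 conjugates to the proteasome, with TCONS_00024150 at 7.23 and 237.81 counts (1.99% and 80.1%). Bag6, a chaperone of misrouted membrane proteins, had TCONS_00013261 at 387.83 and 0.83 counts (25.8% and 0.0577%), while its longer TCONS_00013262 held 42.1% and 65.6%. The 24 genes outside these roles included Wbp1l, with TCONS_00015934 at 0.08 and 314.65 counts (0.0262% and 84.3%).

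Most of these genes differed by less than 1.5-fold in summed level, as did most of the other genes. On log2 of summed FPKM plus 1, 7 members were at least 1.5-fold higher in SML, 6 were lower and 132 (91.0%) were neither, against 93.7% of the other genes. Of all 1140 genes, 2.89% were higher and 3.77% lower. The 7 were Mbnl1, Celf2, Tcea1, Nfia, Nadk2, Ptp4a2 and Csnk1g2, and the 6 were Tpm2, Tpm1, Tpm3, Ctnnd1, Zyx and Vps13d. The median size of the log2 difference was 0.23 in members, 0.18 in the other 995 genes and 0.22 over all genes kept. The ratio of summed counts lay between 0.8 and 1.25 in 88 members (60.7%) and 725 other genes (72.9%). Its interval lay above 1 in 50 members, below 1 in 37 and held 1 in 58. Among the other genes these were 310, 296 and 389.

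**Figure D4:**
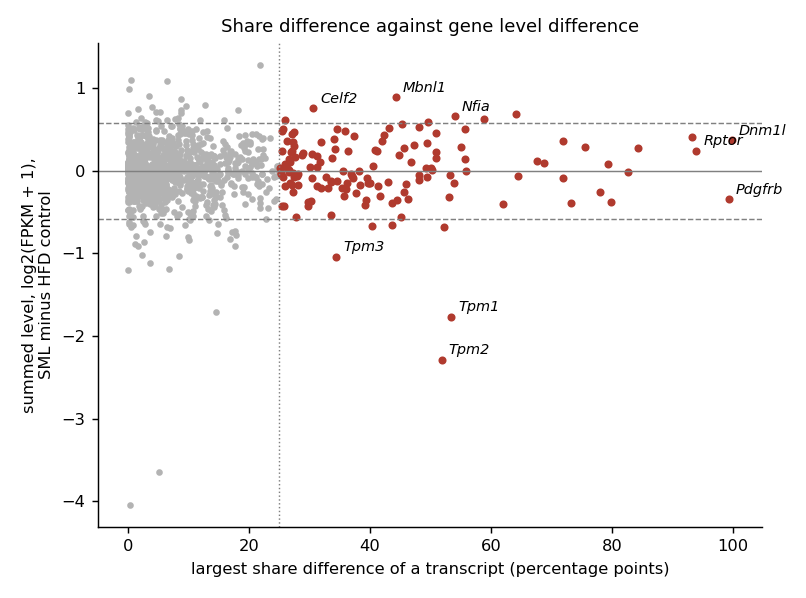
Log2 difference of summed FPKM plus 1, SML minus control (y axis), against the largest difference in transcript share (x axis, percentage points), 1 point per gene. Members are right of the dotted line at 25 points, the dashed lines mark 1.5-fold, and 132 of the 145 members lie between them.

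Several measured features went along with membership. Genes with fewer counts were members more often: 20.6% of 447 genes with 200 to 400 counts in the lower library, 9.95% of 402 with 400 to 1000 and 4.47% of 291 with more. The median lower sum was 346 counts in members and 547 in the other genes. Genes with more transcripts were members more often too, at 9.09% of 682 with 2 transcripts, 17.1% of 240 with 3 and 19.3% of 218 with 4 or more. The minimum and the threshold of the rule already set the differences in share beyond counting error, and the error of estimating the split cannot be seen with 1 library per group.

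Exchanging transcripts were often alike in length. The transcripts with the largest gain and loss of share differed in implied length by a median of 1.41% (53.1 bases) in 143 members and 4.22% (99.4 bases) in 892 other genes. A difference of at most 1% was seen in 60 members (42.0%), against 21.6% of all 1035 genes with both lengths, and in 11 of the 15 members with the largest differences in share. A difference of over 10% was seen in 12 members (8.39%) and 27.8% of the others. Put the other way, 26.8% of 224 genes with transcripts within 1% were members, 12.9% of 551 genes at 1% to 10%, and 4.62% of 260 beyond 10%. In 26 members the difference was at most 10 bases, and in 15 its range from rounding held 0. What part depth, the number of transcripts or their likeness has in the differences in share was not tested.

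When transcripts of a gene with implied lengths within 1% of each other were joined, 83 genes reached 25 percentage points, 81 of them members. Rptor kept 94.0 points, Alg9 82.8 and Prkaca 26.6, and Tpm1 and Tpm2 kept 48.9 and 51.8. Dnm1l kept 28.8 points and Wbp1l 28.5. Another 31 members came to under 25 points, such as Mbnl1 at 17.4, Tpm3 at 16.9, Hnrnpk at 6.91, Mapk8ip3 at 6.17, Pls3 at 3.97, Mfn2 at 0.823, Mef2a at 0.0295 and Akap1 at 0.0272. The other 33 members, Pdgfrb, Rap1gap and Arrb1 among them, were left with 1 length group and so no share to compare. Joining by length would also merge isoforms of a gene that differ only by a short exon.

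**Figure D5:**
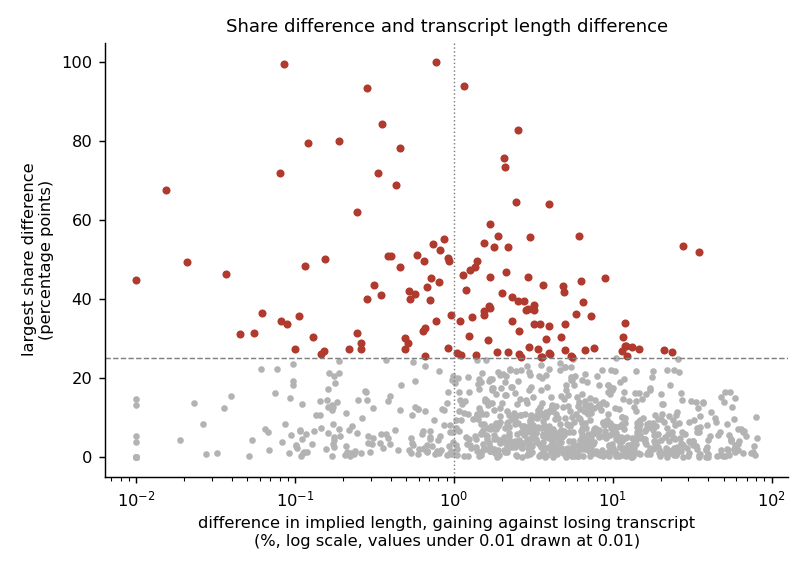
Largest difference in transcript share (y axis, percentage points) against the difference in implied length between the transcript with the largest gain in share and the one with the largest loss (x axis, % of the longer, log scale), for 143 members (red) and 892 other genes (grey). The dashed line marks 25 points and the dotted line 1%, left of which 60 members lie.

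In 52 members (35.9%) and 23% of the other genes, a transcript had a count above 0 in a library and an FPKM listed at 0 there, so those 2 columns of the table disagree for it. Exons of 35 members (24.1%) overlapped exons of another protein-coding gene, against 27.6% of the others, and fragments in such stretches may have been counted for either gene.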

How the data were processed

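Poly(A) RNA libraries from brown adipose tissue, 1 for the control group and 1 for the SML group, were analysed from 1 table of 14189 transcripts. The deposited count columns are scaled signal values, not whole reads: 1 fragment is worth 0.638 (control) or 0.866 (SML), and 90.7% of 536 and 90.8% of 780 low values of symbols with 1 transcript were whole multiples within 0.1. For symbols with several transcripts only 35.3% of 879 and 39.8% of 1002 were, so no test on counts was made. The binomial intervals round the counts of such symbols to whole recovered fragments, which most of their low values are not. The deposited FPKM columns are the authors' own. The submitters' processing notes name CASAVA 1.8, Cufflinks and mm10 without their roles, and no aligner, annotation or filter was given in the sources used here.

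Shares are a transcript's count over the gene's sum. Intervals are exact 95% binomial (Clopper-Pearson for shares, conditional for ratios) on recovered fragments, counting error only, and at least 232 fragments stood behind each gene. Levels are log2(summed FPKM + 1) at a mean of at least 1 FPKM. Symbols written as dates (17) were left out. Implied length is count over FPKM, calibrated on 1792 transcripts of single-transcript genes, of which 33.9% came within 1% and 63.1% within 5% of the annotated length in the control library (34.0% and 63.3% in SML). The median difference between libraries was 0.624 bases over 6090 transcripts. Each gene's transcripts share 1 deposited outline, so starts and ends could not be compared as planned, and implied length was used instead, chosen after seeing the data. Exons came from GENCODE M21, where a coding cassette exon matched if it was within 2 bases of the interval of the length difference.

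Named genes were the 15 largest differences, the 10 with the most counts, members of 7 cell type marker lists and of the lists of splicing regulators, cleavage and polyadenylation factors and genes with known tissue or hormone dependent isoforms, the 3 on each side of the threshold and the 3 highest and lowest ratios of summed FPKM. Results for some of these genes are not reported here. The members and lists were chosen with earlier results of these data known. Scripts were tested on simulated data. Python 3.11.15, pandas 2.3.3, numpy 2.4.6, scipy 1.17.1 and matplotlib 3.10.9 were used.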

Additional observations from a re-analysis of the deposited data

How the results depend on the processing

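The number of genes that reached 25 percentage points, 145, depended on the minimum and the threshold. It was 280 of 1599 genes at a minimum of 100 counts, 32 of 569 at 500, 85 at a threshold of 35 points and 197 at 20 points. Joining transcripts of like length, an alternative added after seeing the data, gave 83. It was 142 with shares from FPKM (137 of them the same genes), 121 without transcripts that have a count but an FPKM listed at 0 (119 the same) and 180 with the minimum set on recovered fragments. Members higher by 1.5-fold numbered 7 to 9 and lower ones 6 to 7 over 4 alternatives of scaling, pseudocount, unit and filter, and equal totals outside the 50 highest genes moved all log2 values by 0.02. Of 37 named members, 34 kept their share difference within its interval with FPKM, and Tpm1 (-58.7 points), Tpm2 (-57.4) and Vps13d (0) did not. The ratio of summed FPKM left the interval of the count ratio in 4, at 0.291 for Tpm1, 0.198 for Tpm2, 0.480 for Tpm3 and 0.461 for Vps13d. Merging transcripts with the same coordinates gave no value, since only 2 of the 1140 genes have more than 1 outline and no member does. No paired analysis was possible because each group is 1 library, and leaving out a replicate was not possible either.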
